A study of Mus musculus with 9 samples.

Results

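The comparison covers the middle against the proximal part of the mouse small intestine: the 3 SI2 arrays against the 3 SI1 arrays, 6 of the 9 arrays of the series. The arrays were grouped by their labelled segment and paired by diet pool, and the comparison was chosen with earlier results of these data known. Male C57BL/6J mice, 9 weeks old at the start, were fed for 2 weeks on a high-fat diet whose fat was palm oil in HF-PO, olive oil in HF-OO and safflower oil in HF-SO. The P/S value of the diets, which the labels do not define, increases in that order. The intestine, freed of fat and pancreas that clung to it, was cut into 3 lengths of the same size, SI1 next to the stomach, SI2 in the middle and SI3 at the far end. RNA from scraped mucosa was pooled over the 6 mice of a diet for each segment, and each pool went on 1 Affymetrix expression array. In both segments each of these 3 diets is present once, so SI2 holds 1 HF-PO, 1 HF-OO and 1 HF-SO array, and SI1 holds the same. The low-fat diet of the study was not analysed here, and an array shows the average of its mice, not the spread between them.

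The small intestine divides its work along its length. The duodenum, next to the stomach, receives acid, bile and pancreatic juice and takes up iron and calcium. Sugars, fats and peptides are absorbed mainly in the jejunum that follows, and bile acids and vitamin B12 in the ileum at the end. Lengths of equal size do not follow these anatomical borders. In bulk RNA of this kind, fewer cells of a type and less RNA per cell cannot be told apart.

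Values are MAS5 signals, a linear intensity per probe set, and a gene stands by its brightest probe set. Signals within a sentence are in the order HF-PO, HF-OO, HF-SO. Differences are on the scale of log2(signal + 16), SI2 minus SI1, and a gene was called when limma's adjusted p was under 0.05. The median signal of an array was 94.4 at the lowest and 105.9 at the highest. With n = 3 pools in SI2 and in SI1, precision is limited by how few arrays there are. Of 22519 probe sets tested, 1817 were higher (8.07%) and 1558 lower (6.92%) in SI2. Of 10977 genes tested, 794 rose (7.23%) and 859 fell (7.83%), 15.1% together, and the median difference over all of them was 0.02. Counts of called genes in the lists below are to be read beside this 15.1%. At least 2-fold differences were called in 115 genes that rose (1.05%) and 136 that fell (1.24%).

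Most of the called differences were small, and most calls were lost when a pool was left out. Of the 1653 genes called, 84.8% differed by less than 2-fold. Left with 2 pools the fit called 811, 537 and 628 probe sets without HF-PO, HF-OO and HF-SO, against 3375 with all. Such a fit also lacks the SI3 array of that pool and has fewer degrees of freedom. A call can therefore be lost where the 3 pools go the same way. All 3375 probe sets called differed in the same direction in the 3 pools, which a call makes likely, against 52.4% of those tested. Leaving out a single SI2 array gave 1352, 1506 and 1379, and leaving out a single SI1 array gave 1949, 1348 and 1931. Calls of 191 genes, 93 higher and 98 lower, passed whichever pool or whichever of the 6 arrays was left out, and below such a call is said to hold. Within single pools, 383, 405 and 389 probe sets were at least 2-fold higher in SI2 and 456, 403 and 424 at least 2-fold lower.

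Genes of neighbouring organs were also read, and 1 array stood apart in some of them. Exocrine pancreas genes fell in 13 of 17, with a median of -4.13. The summed signal of the 18 measured was between 31156 and 31743 in SI2, against 74285 to 88093 in SI1. In SI3 it was 32474 to 33404, much as in SI2. The 4 tested genes that were not called enter these sums, so the sums do not show how far the others fell. Reg1, Pdx1 and Gp2, a protein of pancreatic granules that also marks M cells (-2.39), are genes of the pancreas too, and what share of their signal in SI1 came from it was not tested. Of 4 tested genes of stomach and Brunner's glands 2 fell. Gkn2, a gastric surface protein, was at 49, 24.6 and 22.7 in SI2, against 2515, 357 and 342 in SI1, and Tff2, a trefoil peptide of mucous glands that was below the filter and not tested, at 11, 25.8 and 12.5 in SI2, against 4474, 374 and 693 in SI1, so both were highest in the HF-PO array of SI1. Within the HF-PO, HF-OO and HF-SO pools the difference of Gkn2 was -5.28, -3.20 and -3.21, and its call held. Without the HF-PO array of SI1 the comparison called 1949 probe sets.

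The lists of segment markers were chosen with earlier results of these data known, so their counts describe the difference and are no check of the labels. Of 10 proximal markers, 7 fell in SI2, and without HF-PO, HF-OO and HF-SO the counts were 7, 6 and 6. Of 10 distal markers, 9 rose, and 8, 7 and 7 did with a pool left out. The proximal markers that were not called were the lactase gene Lct (0.06), the hormone gene Gip (0.21) and Gata4 (-0.42), a transcription factor of the proximal gut. Villin, the actin bundler of every enterocyte's microvilli (Vil1), had a signal of 29239 ± 1134 in SI2 and 27567 ± 2736 in SI1 (SD, n = 3 pools). Lct was at 28511 ± 427 in SI2 and 27469 ± 1930.4 in SI1.

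The largest rise was that of Plb1, a phospholipase of the brush border that splits fatty acids from dietary phospholipids. Its signal was 3280.1, 2535 and 2824 in SI2, against 9.1, 19.1 and 8.8 in SI1, with no overlap, a difference of 6.69 (SE 0.16). Slc5a8, which carries lactate and short-chain fatty acids with sodium, stood at 1422, 1213 and 1639.6 in SI2, against 19.9, 4.1 and 26.5 in SI1, a difference of 5.51 (SE 0.17). Fabp6, which binds bile acids within cells of the ileum, stood at 1605, 1852 and 1424 in SI2, against 40.2, 32.3 and 2.7 in SI1, a difference of 5.46 (SE 0.29). In SI1 all 3 lay near the foot of the signal range, so the size of their rise depends on the pseudocount: Plb1 rose by 7.83 with a pseudocount of 1 and 5.26 with 64, Slc5a8 by 6.63 with a pseudocount of 1 and 4.20 with 64 and Fabp6 by 6.56 with a pseudocount of 1 and 4.26 with 64. In RefSeq's GRCm38.p6 assembly Plb1 lies at chr5:32232691-32364356, Slc5a8 at chr10:88885992-88929515 and Fabp6 at chr11:43596040-43601562.

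Next by size came Gsdmc2, a gasdermin, a family of proteins whose cut forms open pores in membranes. It stood at 573, 441 and 697 in SI2, against 49.4, 16.6 and 28.7 in SI1 and rose by 3.66 (SE 0.21). Its relative Gsdme rose by 2.19 (SE 0.09), while Gsdmd, at 0.41, and Gsdma2, at 0.34, were not called. Mgat4c, a glycosyltransferase gene, rose by 3.30, Fam151a by 2.85, the carbonic anhydrase Car3 by 2.84 and Tmigd1, a membrane protein of the epithelium, by 2.83. Nts, which encodes the peptide hormone neurotensin, rose by 2.82, with signals of 6474 ± 252 in SI2 and 911 ± 119 in SI1. The kinase Map3k6 rose by 2.65, and Mptx1, a mucosal pentraxin, by 2.45. Osr2, a zinc finger transcription factor, was among the tightest: 2019, 2027 and 1963 in SI2, against 322, 327 and 323 in SI1, a rise of 2.57 (SE 0.08).

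The largest fall outside the pancreas genes was that of Akp3, a duodenal alkaline phosphatase. It stood at 127, 146 and 123 in SI2, against 19552, 24924 and 24919.6 in SI1, and fell by 7.28 (SE 0.11). S100g, the calcium-binding protein calbindin-D9k, which vitamin D induces and which ferries calcium through the enterocyte, stood at 48.5, 102 and 113 in SI2, against 14804, 13501 and 11702 in SI1, and fell by 7.07 (SE 0.25). Pdx1, a regulator that patterns duodenum and pancreas, stood at 44.1, 29.8 and 36.7 in SI2, against 1820.3, 2091 and 2036 in SI1, and fell by 5.25 (SE 0.13). For each of the 3 the lowest SI1 array was far above the highest SI2 array. The size of a fall to signals near the pseudocount depends on it as well: with pseudocounts of 1 and 64 the differences were -5.73 and -4.34 for Pdx1, -4.18 and -3.27 for Slc16a9 and -4.33 and -3.26 for Ugt2b38. In GRCm38.p6 Akp3 lies at chr1:87124954-87128728, S100g at chrX:162961992-162964599 and Pdx1 at chr5:147270097-147275848.

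**Figure D1:**
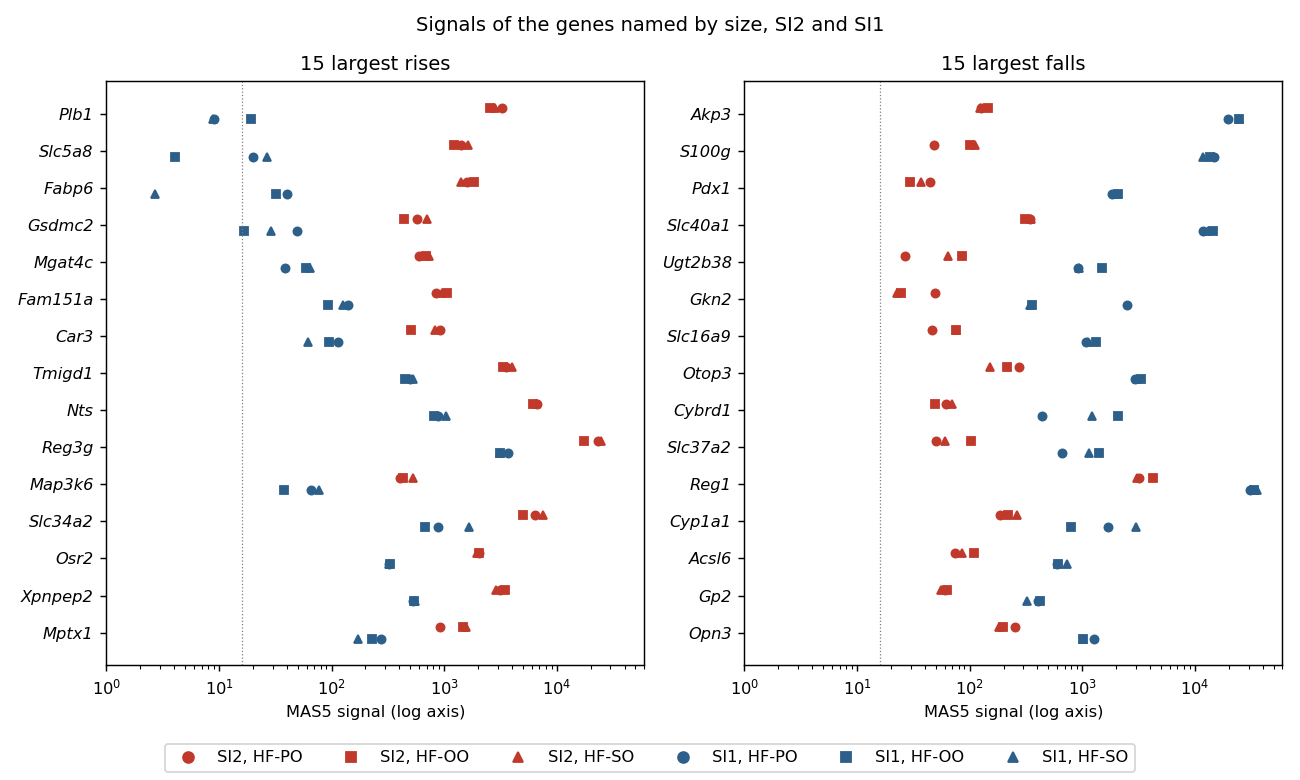
MAS5 signal on a log axis for the 15 genes with the largest rise (left) and the 15 with the largest fall (right), 1 point per array, SI2 in red above SI1 in blue, with the point's shape giving the diet pool and the dotted line the pseudocount of 16. In every gene shown the SI2 and SI1 points do not overlap, and the genes were chosen by this difference. The Gkn2 signal of the HF-PO array in SI1, 2515, stands to the right of the other 2 SI1 arrays.

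Slc16a9, a monocarboxylate transporter, fell by 3.89, Otop3, a proton channel, by 3.81 and Slc37a2, of the sugar-phosphate exchanger family, by 3.61. The fall was 3.97 for Ugt2b38, a glucuronosyltransferase, 2.65 for Acsl6, an acyl-CoA synthetase, and 2.31 for Opn3, of the opsin family. Cyp1a1, the cytochrome that dietary aryl hydrocarbons induce, stood at 186, 221 and 262 in SI2, against 1696, 789.9 and 3020.5 in SI1, and fell by 2.77 (SE 0.57). Its SI1 arrays differed several-fold among themselves, and its call, with an adjusted p of 0.0222, was lost whichever pool was left out. Adjusted p-values of the 30 genes named by size lay between 5.38e-07 and 0.0222, and the calls of 29 of the 30 held.

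Of 10 iron and heme genes tested, 5 fell in SI2 and 0 rose, with a median of -0.57, and the counts without HF-PO, HF-OO and HF-SO were 5, 4 and 4. Slc40a1, ferroportin, the exporter that passes iron to the blood, stood at 345, 310.3 and 347 in SI2, against 11738, 14514 and 12968 in SI1, and fell by 5.22 (SE 0.13). The ferric reductase Cybrd1, which readies iron for uptake, stood at 62, 49.5 and 70.3 in SI2, against 435, 2082 and 1209 in SI1, and fell by 3.79 (SE 0.41). The SI1 arrays of Cybrd1 differed several-fold among themselves, with HF-PO lowest. Slc11a2, the importer DMT1, fell by 1.96 (SE 0.12) and Epas1, the hypoxia factor known to drive iron uptake genes, by 1.29 (SE 0.11). By contrast the ferroxidase Heph (-0.03; 95% confidence interval -0.23 to 0.18), the ferritin gene Fth1 (-0.24) and the transferrin receptor Tfrc (0.42) were not called.

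Of 8 calcium and magnesium genes tested, 3 fell and 2 rose, and of 7 for alkaline phosphatase and phosphate 3 fell and 1 rose. The plasma membrane calcium pump Atp2b1 fell with S100g, by 1.49 (SE 0.10), and the vitamin D receptor Vdr by 0.56 (SE 0.09). The channel Trpv6, by which calcium enters, was below the filter on low signals, at 74.1 ± 15.8 in SI2 and 106 ± 48.5 in SI1. In the other direction, Trpm6, a magnesium channel, rose by 1.61 (SE 0.22). Cnnm4, a magnesium exporter, rose by 0.71 on its brightest probe set, but averaged over its probe sets the difference was -0.071. Slc34a2, the sodium-phosphate cotransporter of the brush border, stood at 6439, 5026 and 7546 in SI2, against 888, 680.1 and 1667 in SI1, and rose by 2.62 (SE 0.24). The other intestinal phosphatase gene, Alpi, was bright in both segments, at 27502 ± 766 in SI2 and 37115 ± 3449.8 in SI1, and fell by 0.43, while Slc20a1, a housekeeping phosphate transporter, fell by 0.68. With 1 pool left out, the call held for Atp2b1 and Slc34a2, was lost without HF-OO for Trpm6 and was lost whichever pool was left out for Vdr, Alpi and Slc20a1.

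**Figure D2:**
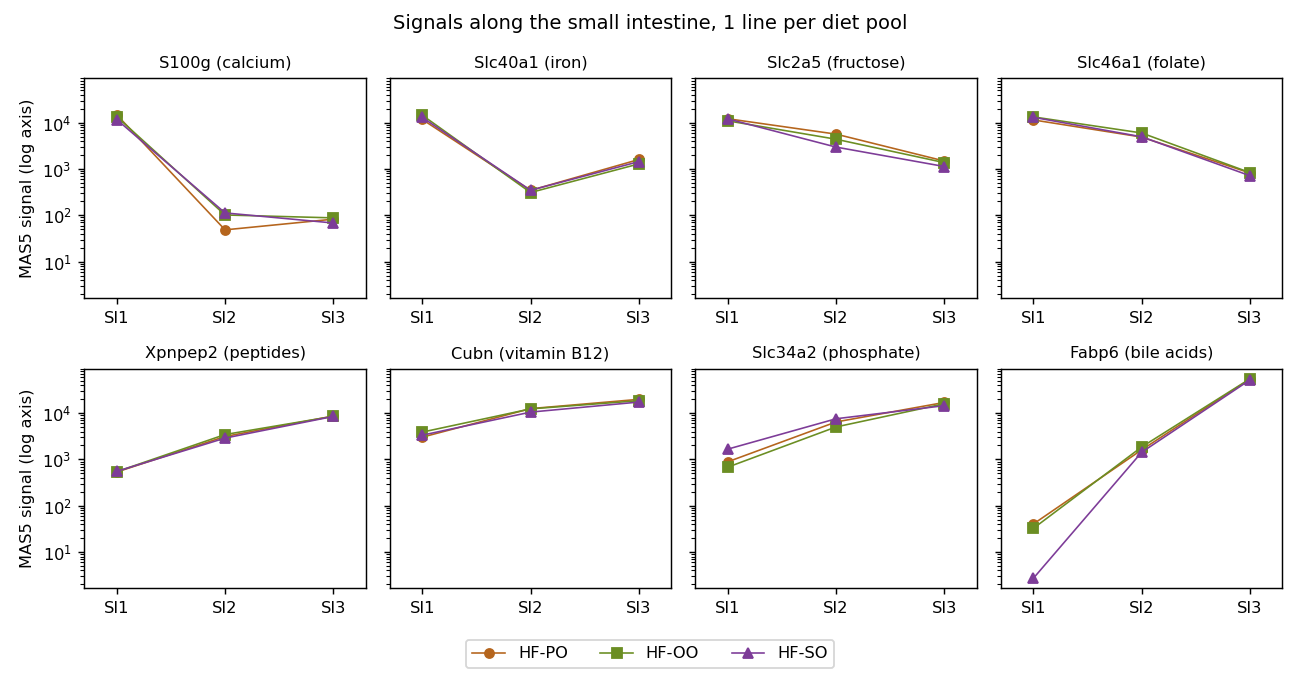
MAS5 signal on a log axis in SI1, SI2 and SI3 for 8 genes of nutrient handling, 1 line and marker shape per diet pool. S100g and Slc40a1 drop steeply between SI1 and SI2, Slc2a5 and Slc46a1 fall in steps, and Xpnpep2, Cubn, Slc34a2 and Fabp6 are higher in SI2 than in SI1 in all 3 pools, with Fabp6 in SI1 between 2.7 and 40.2.

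Vitamin genes moved in both directions. Of 11 tested genes for water-soluble vitamins, 4 rose and 4 fell. Slc46a1, the proton-coupled folate transporter, was at 4892, 5994 and 4956 in SI2, against 11468, 13343 and 13060.3 in SI1, and fell by 1.26 (SE 0.10). The reduced folate carrier Slc19a1 fell by 1.30 (SE 0.10), the thiamine transporter Slc19a3 by 1.93 (SE 0.24) and Slc23a2, a vitamin C transporter, by 0.83 (SE 0.10). Cubn, which with Amn forms the receptor for vitamin B12 bound to intrinsic factor, was at 12493, 12334 and 10499 in SI2, against 3019, 3884 and 3335 in SI1, and rose by 1.79 (SE 0.11). Its partner Amn rose by 0.95 (SE 0.09), the riboflavin transporter Slc52a3 by 1.40 (SE 0.09) and the vitamin C transporter Slc23a1 by 1.58 (SE 0.19). Of the 3 segments Slc23a1 was highest in SI2: its mean signal was 3875 ± 379.8 in SI2 and 1286 ± 161 in SI1, and 906 ± 386 in SI3. On leaving out pools, the call held for Slc46a1, Slc19a1, Cubn, Amn and Slc52a3, was lost without HF-PO for Slc19a3 and was lost without HF-OO for Slc23a2 and Slc23a1. Of 11 vitamin A genes 2 fell (18.2%, against 15.1% of all genes), the carotenoid oxygenase Bco2 by 0.47 and the retinoic acid hydroxylase Cyp26b1 by 0.67, and both calls were lost whichever pool was left out. Rbp2, the retinol carrier of the enterocyte, stood at 32445 ± 949 in SI2 and 35643 ± 3514 in SI1 (difference -0.13, not called).

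Slc2a5, the fructose transporter, was at 5654, 4387 and 2968 in SI2, against 12156, 10951 and 12050.1 in SI1, and fell by 1.48 (SE 0.17). Slc5a1, the sodium-glucose cotransporter, was at 26398, 28651 and 27164 in SI2, against 25474, 29079.5 and 32373 in SI1, and its difference of -0.07 was not called (95% confidence interval -0.33 to 0.18). Of 9 genes for fructose breakdown and gluconeogenesis, 6 fell and 1 rose, with a median of -0.62. Ketohexokinase, which starts fructose breakdown (Khk), fell by 0.85, the triokinase Tkfc by 1.34, fructose bisphosphatase Fbp1 by 1.69 (SE 0.13) and the glucose-6-phosphatase G6pc by 1.15. The one that rose was Pck1, which makes phosphoenolpyruvate from oxaloacetate, by 1.04 (SE 0.15). Counts of the genes that fell were 4, 1 and 2 without HF-PO, HF-OO and HF-SO. In the list of sugar digestion and transport, 3 of 9 fell and 2 rose, with a fall of 0.66 for Slc2a2, through which sugars leave the cell, and a rise of 0.93 for Slc5a4b, a relative of Slc5a1. By pool, the call held for Slc2a5 and Fbp1, was lost without HF-OO and HF-SO for Khk, G6pc and Pck1, was lost without HF-OO for Tkfc, was lost without HF-SO for Slc5a4b and was lost whichever pool was left out for Slc2a2.

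Of 10 peptidase genes tested, 8 rose and 0 fell, with a median of 0.77, and 6, 5 and 5 rose without HF-PO, HF-OO and HF-SO. Xpnpep2, an aminopeptidase that cuts before proline, was at 3125, 3444 and 2885 in SI2, against 534, 542 and 552 in SI1, and rose by 2.50 (SE 0.09). The lowest SI2 array was well above the highest SI1 array. Naaladl1, a peptidase of the brush border, rose by 1.77 (SE 0.09), the meprin subunit Mep1a by 1.77 (SE 0.08) and the dipeptidase Cndp2 by 0.97 (SE 0.10). Dpp4, a dipeptidyl peptidase that also cuts incretin hormones, rose by 0.82 (SE 0.09), and Anpep and Enpep, aminopeptidases already bright in SI1, by 0.35 and 0.50, calls that were lost whichever pool was left out. Mep1b (0.26) and the neprilysin gene Mme (-0.18) were not called. Tmprss15, enteropeptidase, the duodenal enzyme that activates trypsinogen, was not tested, since its mean over all 9 arrays was below the filter. Its signals were 35, 2.3 and 16.4 in SI2, against 579, 766 and 762 in SI1, without overlap.

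Of 13 genes tested for amino acid and peptide transport, 8 rose and 0 fell, with a median of 0.39. In all 3 pools 10 were higher and 0 were lower, while the counts called were 1, 0 and 0 without HF-PO, HF-OO and HF-SO. Slc1a1, which takes up glutamate and aspartate, rose by 1.40 (SE 0.18), with signals of 996 ± 56.9 in SI2 and 379 ± 116 in SI1. Differences of Slc7a8, a basolateral exchanger, Slc36a1, a proton-coupled carrier, Slc16a10, a carrier of aromatic amino acids, and Slc6a19, the main neutral amino acid importer, were 0.72, 0.70, 0.70 and 0.39. The peptide importer Slc15a1 (0.38) was not called. Among 9 genes for citrulline, arginine and glutamine, Oat, ornithine aminotransferase, was called (0.51, lost whichever pool was left out). That is 11.1%, against 15.1% of all genes.

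Of the 22 genes that absorb fat and build chylomicrons, 3 rose and 0 fell, 13.6% called against 15.1% of all genes. The 3 were the fatty acid translocase Cd36, at 3749.9, 3169.7 and 3072 in SI2, against 2412, 2063 and 1675 in SI1, with a rise of 0.71 (SE 0.13), the acyl-CoA synthetase Acsl3 by 0.74 (SE 0.11) and the glycerol phosphate acyltransferase Gpat3 by 0.48 (SE 0.10). Without HF-PO, HF-OO and HF-SO, 2, 0 and 0 of them were called. The other 19 lay between -0.28 for Slc27a2 and 0.25 for Slc27a4, both fatty acid transport proteins. Apob, the backbone of the chylomicron, was at 11694 ± 864 in SI2 and 11639 ± 1079 in SI1, and its difference of 0.01 had a 95% confidence interval of -0.21 to 0.23. Mttp, which loads fat onto Apob, was at 24993 ± 227 in SI2 and 28290.2 ± 651 in SI1 (-0.18). Fabp1 and Apoa1 were near the top of the signal range in both segments, at 43266 ± 648 in SI2 and 44531 ± 8284 in SI1 and at 46017 ± 2165 in SI2 and 49606 ± 4452 in SI1, so a difference hidden by saturation was not tested.

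Genes of fatty acid oxidation gave 1 of 25 higher and 2 lower (12% called, against 15.1% of all genes). Ehhadh, a peroxisomal enzyme, fell by 0.91 (SE 0.09), with signals of 3239 ± 230.2 in SI2 and 6085 ± 495 in SI1, and the mitochondrial thiolase Acaa2 by 0.53 (SE 0.10). Vnn1, a pantetheinase and known target of the receptor PPAR alpha, rose by 1.94 (SE 0.08), at 10388, 7966 and 9285 in SI2, against 2903, 2082 and 2198 in SI1. Pdk4, another target of that receptor, was at 1520.3 ± 550.4 in SI2 and 1406 ± 284 in SI1 and was not called (0.07; 95% confidence interval -0.69 to 0.83). The desaturase Scd1, which makes oleate, rose by 1.74 (SE 0.16), at 2909.9, 1282 and 474 in SI2, against 862, 306 and 161 in SI1, and the elongase Elovl6 fell by 0.99 (SE 0.09). Of 18 cholesterol synthesis genes, 0 rose and 3 fell (16.7%, against 15.1% of all genes), the largest the regulator Insig1 by 0.61. The count was 0, 0 and 0 without HF-PO, HF-OO and HF-SO. Scarb1, a lipoprotein and sterol receptor, fell by 2.19 (SE 0.13), whereas the sterol exporter Abca1 rose by 1.56 (SE 0.23) and the cholesterol importer Npc1l1 by 0.42 (SE 0.10). The call in these fits of 2 pools held for Ehhadh, Vnn1, Scd1, Elovl6 and Scarb1, was lost without HF-PO and HF-SO for Abca1 and was lost whichever pool was left out for Acaa2 and Npc1l1.

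Of 9 genes for bile acid transport and signalling, 2 rose and 3 fell. Besides Fabp6, the ileal hormone gene Fgf15 rose by 1.67 (SE 0.38), with signals near the foot of the range, at 21.4, 60.2 and 132 in SI2, against 10.5, 7.2 and 5.2 in SI1. Slc10a2, the importer of bile acids from the lumen, was at 3.2, 45.7 and 88 in SI2, against 13.2, 16.1 and 17.1 in SI1, and its difference of 0.66 was not called. The HF-OO and HF-SO arrays of SI2 were above all of SI1, and the HF-PO array of SI2 was below them. The basolateral exporters Slc51a and Slc51b were well expressed in both segments, at 6811 ± 435 in SI2 and 5524 ± 408 in SI1 and at 3065 ± 354 in SI2 and 2748 ± 335 in SI1, and were not called. Nr0b2, the small heterodimer partner that bile acids induce through their receptor, fell by 1.17 (SE 0.13), and the organic anion exporters Abcc3 and Abcc2 by 1.02 (SE 0.10) and 0.61 (SE 0.13). Fabp6 averaged 53726 ± 1445 in SI3 and Slc10a2 averaged 1749 ± 139 in SI3. When a pool was left out, the call held for Nr0b2 and Abcc3, was lost without HF-OO and HF-SO for Fgf15 and was lost whichever pool was left out for Abcc2.

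Of 31 tested enzymes that conjugate and hydrolyse foreign compounds, 14 fell and 2 rose, with a median of -0.40, and 24 had a lower value in all 3 pools. Gsta4, a glutathione transferase that clears lipid aldehydes, was at 2885, 3173 and 3077 in SI2, against 12659, 15700.0 and 16483 in SI1, and fell by 2.28 (SE 0.09). The epoxide hydrolase Ephx1 fell by 1.99 (SE 0.13), the carboxylesterase Ces2g by 1.45 (SE 0.11), the glutathione transferase Gstt1 by 1.09 (SE 0.09) and the glucuronosyltransferase Ugt2b5 by 1.10 (SE 0.09). The 2 that rose were the carboxylesterase Ces2a by 0.69 and the microsomal transferase Mgst1 by 0.43, and neither call held. Counts of the genes that fell were 8, 6 and 8 without HF-PO, HF-OO and HF-SO. Members of these families are near copies of each other, so probe sets may take signal from relatives. Among cytochromes P450, 4 of 18 fell and 3 rose (38.9%, against 15.1% of all genes). Without HF-PO, HF-OO and HF-SO, 1, 1 and 1 fell and 0, 0 and 0 rose. Cyp2c29 fell by 1.20 (SE 0.14), while the abundant Cyp3a11 (-0.25) and Cyp2b10 (0.04) were not called.

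**Figure D3:**
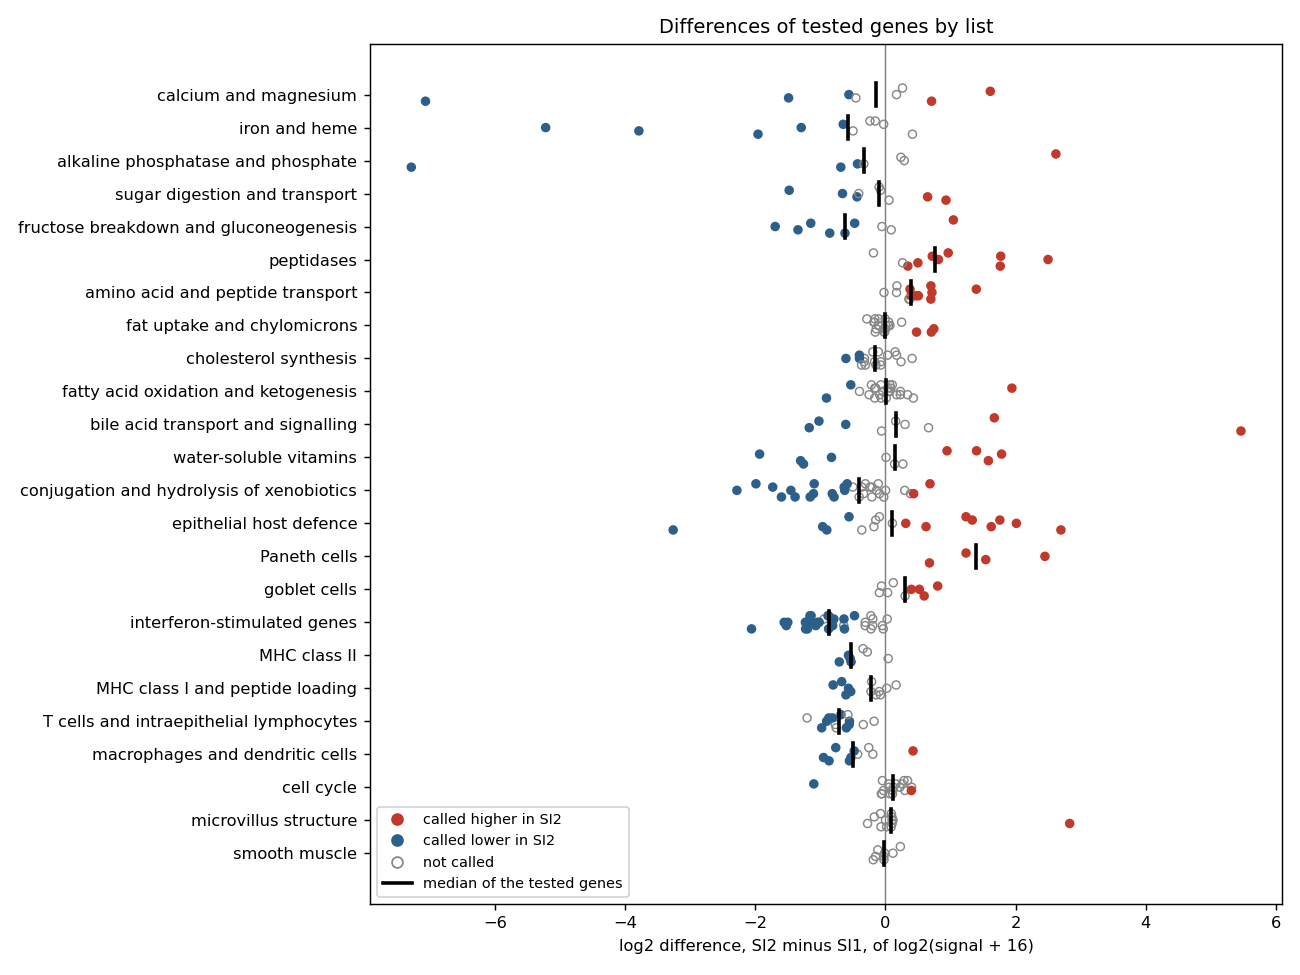
Difference of each tested gene, SI2 minus SI1, by gene list, with genes called higher in red, called lower in blue and not called open, and a black bar at the median of the list. Of 10 peptidases 8 are called higher, of 33 interferon-stimulated genes 22 are called lower, and the genes for fat uptake lie around 0.

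Ion transport and acid-base genes moved in both directions. Of 27 tested, 7 rose and 7 fell. Car2 and Car9, carbonic anhydrases that supply bicarbonate and protons, fell by 2.09 (SE 0.18) and 1.41 (SE 0.12), while Car4 on the brush border rose by 1.10 (SE 0.11), next to Car3. Car2 was at 1383, 1006 and 1041 in SI2, against 4344, 5437 and 4869.5 in SI1, without overlap. Guca2a, guanylin, a peptide that drives chloride and water secretion, was at 8628, 9115 and 8764 in SI2, against 2099.5, 2041 and 2423 in SI1, and rose by 2.01 (SE 0.10). Its relative uroguanylin, Guca2b, and their receptor Gucy2c were not called, at 0.02 and 0.02. The water channel Aqp1 rose by 1.86 (SE 0.10), and the sodium-proton exchanger Slc9a3 fell by 0.91 (SE 0.11). Tested on 2 pools, the call held for Car2, Car9, Car4, Guca2a and Aqp1 and was lost without HF-OO and HF-SO for Slc9a3. The zinc exporter relative Slc30a10, which exports manganese, fell by 1.98 (SE 0.12), and the other 8 genes for zinc and metallothioneins, Mt1 and Mt2 among them, were not called. This list had 11.1% called, against 15.1% of all genes.

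Lectins of the Reg family moved in both directions. Reg3g, a lectin that kills Gram-positive bacteria, was at 23174, 17459.6 and 24483 in SI2, against 3667, 3102 and 3153 in SI1, and rose by 2.70 (SE 0.12), and its neighbour in function Reg3b rose by 1.76 (SE 0.11). Reg1, a lectin of the same family made in pancreas and proximal gut, was at 3168, 4275 and 3078 in SI2, against 31082, 33588 and 35609.7 in SI1, and fell by 3.26 (SE 0.12). Of 17 epithelial defence genes tested, 8 rose and 4 fell. Ang4, a microbicidal ribonuclease of Paneth cells, rose by 2.01 (SE 0.14), the secreted phospholipase Pla2g2a by 1.63 (SE 0.15) and Duoxa2, which matures the oxidase DUOX2, by 1.33. Il18, a cytokine that epithelial cells store, fell by 0.90 (SE 0.11), and Pigr, which carries IgA across the epithelium, was not called (-0.36). Reg genes resemble each other in sequence, and their probe sets may share signal. For these genes the call held for Reg3g, Reg3b, Reg1, Ang4 and Pla2g2a, was lost without HF-OO and HF-SO for Duoxa2 and was lost without HF-OO for Il18.

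Paneth cells, the defence cells at the crypt base, had all 4 tested markers higher. The other 4 of the 8 listed, the defensin genes Defa21, Defa22 and Defa24 and the gene Mptx2, were not measured. Mmp7, the protease that activates their defensins, rose by 1.54 (SE 0.17), Itln1, an intelectin, by 1.24 (SE 0.19) and the lysozyme Lyz1 by 0.68 (SE 0.10), beside Mptx1. Counts were 4, 2 and 2 without HF-PO, HF-OO and HF-SO. The summed signal of the 4 genes was between 49995 and 54004 in SI2, against 25422 to 33751 in SI1. Lysozyme has a macrophage copy, Lyz2, which rose by 0.43 while 6 of the 10 macrophage markers fell, and the pair is alike enough that their probe sets may share signal. Of 9 goblet cell markers 4 rose, among them Muc2, the main mucin, by 0.60 and Agr2, which folds mucins, by 0.52, with counts of 1, 0 and 0 with a pool left out. Among stem cell and cell cycle genes, Lgr5 was at 364 ± 36 in SI2 and 364 ± 39.4 in SI1 (0.00), the proliferation marker Mki67 at 0.11, and of 19 cell cycle genes Aurkb rose by 0.40 and Rrm2, a ribonucleotide reductase subunit, fell by 1.10 (SE 0.09). Of these 2, which are 10.5% of the tested cell cycle genes against 15.1% called among all genes, the call of Rrm2 held.

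Interferon-stimulated genes are the antiviral programme that cells switch on when they sense interferon or foreign nucleic acid. Of 33 tested, 22 fell and 0 rose, 66.7% against 15.1% of all genes called, with a median of -0.87. Without HF-PO, HF-OO and HF-SO, 13, 14 and 13 fell. Rsad2, viperin, which blocks viral RNA synthesis, was at 592, 321 and 348 in SI2, against 1910.1, 1382 and 1981 in SI1, and fell by 2.06 (SE 0.21). Ifit1, which binds foreign RNA caps, was at 1207, 785 and 865 in SI2, against 2641, 2608 and 2783 in SI1, and fell by 1.50 (SE 0.13). Usp18, which removes the ubiquitin-like ISG15 and damps the response, fell by 1.52 (SE 0.15), Herc6 by 1.55 (SE 0.18), Oas1a, a sensor of double-stranded RNA, by 1.20 (SE 0.12) and the GTPase Igtp by 1.16 (SE 0.13). The calls of these 6 held.

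Several genes that switch the programme on were not called. The sensors Ddx58 (-0.03) and Ifih1 (-0.31) and the transcription factors Irf7 (-0.19), Irf9 (-0.31), Irf1 (-0.22) and Stat2 (-0.19) lay closer to 0, and their difference from the 22 was not tested. Of the 33 genes, 28 were lower in SI2 in all 3 pools.

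The response element that the interferon factors are known to bind has letters that can be read next to the starts of these genes. Its core, GAAA followed by any 2 bases and GAAA again, was searched on both strands of RefSeq promoters of the GRCm38.p6 assembly, from 250 bases before to 50 bases after the start, with overlapping copies allowed. Promoters of 1079 of 27025 genes (3.99%) held it, and of the interferon-stimulated genes measured, 24 had a promoter there and 15 of them (62.5%) held it. Of the 22 genes that fell, 15 had a promoter and 11 held the core. The 4 stretches below are from genes described above whose promoters hold the core. They end before the start of transcription, are written along the gene's own strand, and show the core in capitals, which reads TTTC, any 2 bases and TTTC where it lies on the other strand. Rsad2 is taken from chr12:26456538-26456597 (minus strand), Ifit1 from chr19:34640760-34640838 (plus), Oas1a from chr5:120907526-120907570 (minus) and Igtp from chr11:58199497-58199555 (plus).
Rsad2: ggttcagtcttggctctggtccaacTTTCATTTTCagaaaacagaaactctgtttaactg
Ifit1: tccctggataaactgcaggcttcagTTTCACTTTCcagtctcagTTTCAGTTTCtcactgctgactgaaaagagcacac
Oas1a: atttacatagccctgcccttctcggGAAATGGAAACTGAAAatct
Igtp: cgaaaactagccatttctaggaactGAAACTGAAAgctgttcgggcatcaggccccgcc
Ifit1 holds 2 separate copies and Oas1a 2 that overlap. A match of these letters is a description of the sequence, and binding was not measured.

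**Figure D4:**
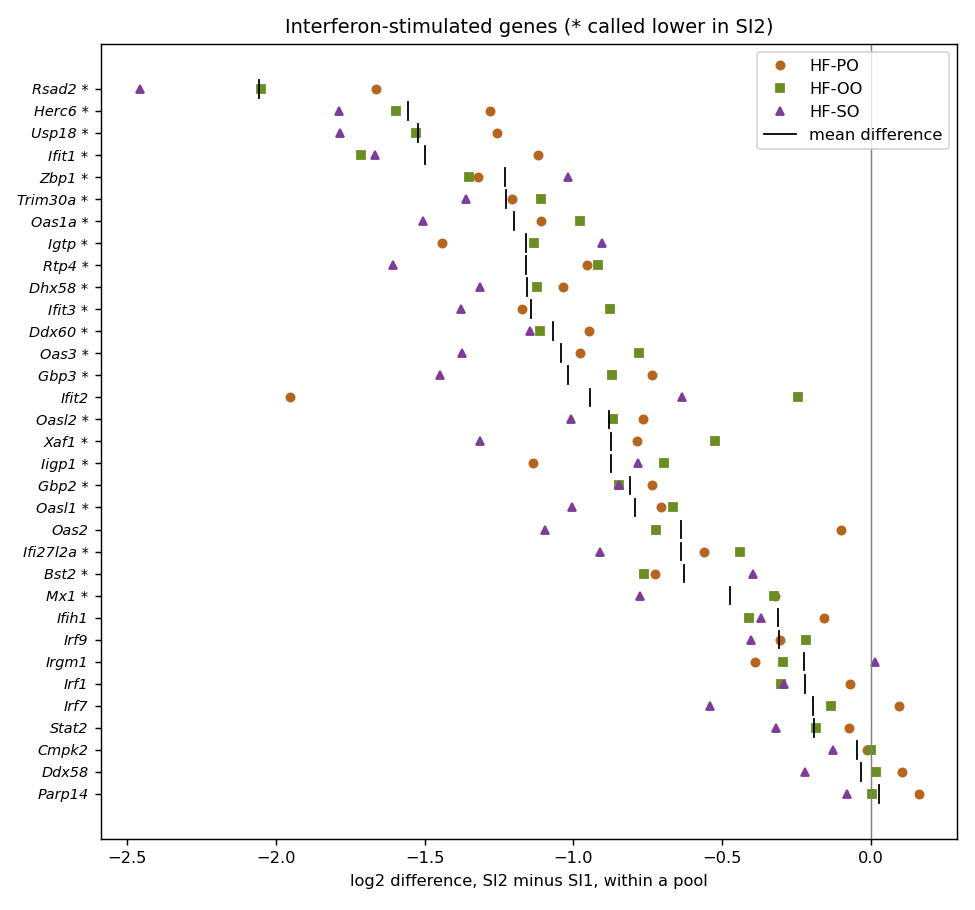
Difference SI2 minus SI1 within each diet pool for the 33 tested interferon-stimulated genes, sorted by their mean difference (black bar), with an asterisk on the 22 called lower. The 3 pools lie left of 0 for 28 genes, and Rsad2 at the top has the largest mean fall, 2.06.

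Of 14 markers of T cells and intraepithelial lymphocytes tested, 8 fell and 0 rose, with a median of -0.72, and 3, 3 and 2 fell without HF-PO, HF-OO and HF-SO. Ccl5, a chemokine of cytotoxic cells, was at 2765, 1721 and 1686 in SI2, against 4961, 2986 and 3582 in SI1, and fell by 0.90 (SE 0.13), Itgae, the integrin that holds lymphocytes in the epithelium, by 0.87 (SE 0.12), Cd7 by 0.98 (SE 0.11) and the granzyme Gzma by 0.68 (SE 0.09). The summed signal of the 17 measured markers was between 11018 and 14181 in SI2, against 18284 to 22476 in SI1. Of 12 genes for MHC class I and peptide loading 5 fell, the immunoproteasome subunit Psmb9 by 0.80 (SE 0.08) and the peptide pump Tap1 by 0.67 (SE 0.08), while B2m (-0.08) and H2-K1 (-0.10) were not called, and the count was 2, 1 and 1 without HF-PO, HF-OO and HF-SO. For MHC class II 4 of 7 fell, with H2-Aa lower by 0.53 (SE 0.09) and H2-Ab1 by 0.54 (SE 0.09), and with these pools left out in turn 1, 0 and 0 fell. Among 10 macrophage and dendritic cell markers 6 fell, the complement gene C1qc by 0.95 (SE 0.09) and the receptor Csf1r by 0.55 (SE 0.09), with 1, 1 and 1 on 2 pools. In fits without a pool the call held for Psmb9 and C1qc, was lost without HF-OO for Cd7, was lost without HF-PO for Itgae, was lost without HF-PO and HF-SO for Ccl5, was lost without HF-OO and HF-SO for Gzma and Tap1 and was lost whichever pool was left out for H2-Ab1, H2-Aa and Csf1r. The part of cell numbers in the interferon difference was not tested.

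Hormone genes of enteroendocrine cells changed one by one. Of 15 tested, 3 rose and 3 fell. Besides Nts, Pyy, a hormone of the distal gut that slows transit and appetite, was at 1091, 1112 and 1120.5 in SI2, against 249, 408 and 429.9 in SI1, and rose by 1.61 (SE 0.18). Cck, released by fat and protein in the proximal gut to empty the gallbladder, was at 1049, 1034 and 1006 in SI2, against 2057, 1706 and 1847 in SI1, and fell by 0.85 (SE 0.09). Ghrl, ghrelin, and Tph1, which makes serotonin, fell by 0.69 and 0.67, and the incretin Gip (0.21), secretin Sct (-0.02), Gcg, the source of GLP-1 (0.52), and the pan-endocrine Chga (0.17) were not called. Among these genes the call held for Pyy, Nts and Cck, was lost without HF-PO and HF-SO for Tph1 and was lost whichever pool was left out for Ghrl.

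Of 23 transcription factors of regional identity, 6 rose and 3 fell. Beside Pdx1 and Osr2, Onecut2, a duodenal factor, fell by 1.91 (SE 0.42). It was at 573, 744 and 648 in SI2, against 2389, 2626 and 2484 in SI1, without overlap. This SE comes from the fit on the arrays of all segments, SI3 included, and not from the spread of these signals alone. The call of Onecut2 was lost without HF-OO and HF-SO. Cdx1, a caudal-type factor, rose by 0.52, Hnf4g by 0.54, Gata5 by 0.51, Foxa1 by 0.55 and Klf5 by 0.39, all under 2-fold, and these calls did not hold. Gata4 was at 1908, 1948 and 1751 in SI2, against 2378, 2537 and 2621 in SI1, and its difference of -0.42 was not called (95% confidence interval -0.73 to -0.11). Hox genes, which pattern the body axis, were mostly too dim, with 6 of 25 measured genes tested. Of these Hoxb6 was higher by 0.69 (16.7% called, against 15.1% of all genes), a call lost without HF-PO and HF-OO. Clock genes were called in 4 of 16 (25%, against 15.1% of all genes), Cry2 highest at 1.08. Without HF-PO, HF-OO and HF-SO, 0, 1 and 0 were called higher and 0, 0 and 0 lower. The core genes Arntl (0.48), Per2 (0.02) and Nr1d1 (-0.25) were not called. Along the chromosomes, 0 runs of at least 3 neighbouring tested genes shared a called 2-fold difference in 1 direction.

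Of 13 genes of the microvillus Tmigd1 was called (7.7%, against 15.1% of all genes). The other 12 lay between -0.27 for Ush1c and 0.12 for Eps8. Tight junction genes rose in 3 of 13 (23.1%, against 15.1% of all genes), the largest Cldn23 by 0.62, and 0 of them were called with any pool left out. Of 8 smooth muscle markers 0 were called, and their range was -0.19 to 0.23. Fibroblast markers fell in 2 of 6 (33.3%, against 15.1% of all genes), Pdgfrb by 0.57 and Col1a2 by 0.51. Without HF-PO, HF-OO and HF-SO, 0, 1 and 0 were called. Tuft cell markers were called in 0 of 5 and endothelial ones in 0 of 4. Of B and plasma cell markers, 2 of 9 fell and 1 rose (33.3%, against 15.1% of all genes). Jchain, the joining chain of IgA, fell by 0.62, with signals of 14327 ± 974 in SI2 and 21963 ± 658 in SI1. Its call was lost whichever pool was left out. The fat cell hormone Adipoq was at 276, 171 and 189 in SI2, against 55.2, 31.8 and 17.3 in SI1, and rose by 2.21 (SE 0.19), a call that held. Retn, below the filter, was at 144, 129 and 149 in SI2, against 13.6, 15.1 and 39.1 in SI1, and Fabp4 (0.29) and Cidec (-0.23), the other 2 adipocyte markers tested, were not called.

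Of 8 genes for carnitine 2 rose (25%, against 15.1% of all genes). They were the carrier gene Slc22a4, by 0.74, and Tmlhe, the first enzyme of carnitine synthesis, by 0.69, and neither call held. Of 8 drug exporters 2 rose (25%, against 15.1% of all genes), Abcb1a, the P-glycoprotein, by 0.64 and Abcc6 by 0.46. Both calls were lost whichever pool was left out. Of 11 genes for fatty acid synthesis 2 rose and 2 fell (36.4%, against 15.1% of all genes). Among them Scd2 was at 0.72 and Fads1, a desaturase of polyunsaturated fat, at -0.69, calls that did not hold. Among 9 stem cell genes Axin2 rose by 0.75 and Rnf43 fell by 0.64, both targets of Wnt signals (22.2% called, against 15.1% of all genes). Both calls were lost whichever pool was left out. Of 6 genes of the follicle-associated epithelium Gp2 fell and Marcksl1 rose by 0.61 (33.3% called, against 15.1% of all genes). The call of Marcksl1 was lost whichever pool was left out. Kit, the 1 mast cell gene tested, stood at 0.24, the 2 neuronal genes tested, Nos1 and Ret, at -0.03 and 0.88, and none of the 3 was called. Of the erythrocyte markers 0 were tested.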

How the data were processed

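Expression was measured in 9 pools of mucosal RNA, 3 segments by 3 diets. The values deposited for each probe set are a linear intensity (signal), made with MAS5 per the submitters' processing notes, of unstated version. On each array the 2% trimmed mean was 500, and the authors' scaling was kept. Of 45101 probe sets, 64 controls were left out. The platform annotation gave 1 symbol to 34945, several to 932 and none to 9160, and 34741 were matched to RefSeq by gene identifier (0 symbols changed). The brightest probe set stood for each of 18193 genes. Probe sets whose mean log2(signal + 16) over the 9 arrays reached the median, 6.80, were tested (22519, standing for 10977 genes), so a gene bright in 1 segment alone can fall below the filter.

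The SI2 and SI1 contrast was fitted in R 4.3.3 by limma 3.58.1 on all 9 arrays, with segment and diet pool as terms, two-sided moderated tests and Benjamini-Hochberg adjustment over the 22519. The pool entered as a block since the same 6 mice gave all segments of a diet, per the labels. Departures from the segment mean correlated with r of -0.049 to 0.151 within a pool, over all pairs of segments. For SI1 with SI2, r was 0.023, 0.021 and -0.049 within HF-PO, HF-OO and HF-SO, and -0.068 to 0.049 between different pools. The residual, on 4 degrees of freedom, includes any dependence of the segment difference on diet. Diets have 1 array per segment, so no diet was tested.

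Members and the 54 gene lists (734 genes, 659 measured, 575 tested) were chosen with earlier results of these data known. The genes named are any list member, plus the 15 largest rises and the 15 largest falls among called genes with 1 direction over the 3 pools, pancreas genes aside. Scripts ran in Python 3.11.15 with pandas 2.3.3, numpy 2.4.6 and, for figures, matplotlib 3.10.9. Alternatives were other pseudocounts, filters, scalings, probe set rules and models, and single pools or arrays left out.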

Additional observations from a re-analysis of the deposited data

Results flagged for a closer look

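One gene of the lists differed at least 2-fold in opposite directions in different pools. Car1, a carbonic anhydrase, had a log2 difference of SI2 minus SI1 of 0.17 in the HF-PO pool, 3.07 in the HF-OO pool and -1.45 in the HF-SO pool. Its signals were 67.6, 294 and 7.3 in SI2, against 58.3, 21 and 47.5 in SI1 in the order HF-PO, HF-OO, HF-SO, so all but the HF-OO array of SI2 were low. Each pool has 1 array per segment, and the difference between pools was not tested.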

How the results depend on the processing

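Counts of called probe sets depended on the number of arrays and on the filter. Against 3375 probe sets (1817 higher and 1558 lower in SI2), no filter on low signals gave 604 (283 higher and 321 lower) with 45037 tested, and the 6 arrays of SI2 and SI1 with the pool as a block gave 1941 (931 and 1010). Leaving out 1 pool or 1 array gave 537 to 1949 (249 to 1050 higher and 288 to 940 lower). Without the pool as a block the count was 3823 (2104 and 1719). Pseudocounts of 1 and 64, a filter at the 75th percentile, quantile normalization and centring each array on its median gave 3129 to 3887. Of the 245 genes called that are named by size or list, those tested under these settings (178 with the filter at the 75th percentile, 240 with a pseudocount of 1, 244 after quantile normalization, otherwise 245) included 0 that changed sign. With the probe sets of a gene averaged in place of the brightest, 235 stayed called and 1, Cnnm4, turned to -0.071; the cause was not tested. With 6 arrays 198 stayed called, with no filter 113, and without HF-PO, HF-OO and HF-SO 130, 111 and 112. For 25 of 452 genes with several called probe sets, these were called in opposite directions. Signals near the pseudocount limit the size of a difference, and the highest signals its detection.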

Other observations

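Of the 251 genes called with at least 2-fold differences, 149 were on no list, 78 higher and 71 lower, and those below were chosen after their values were seen. Whether the calls of those below held with a pool or array left out is not given here. Slc13a1, a sodium-sulfate cotransporter, was at 1419.7, 2917 and 1599 in SI2, against 7168, 10641 and 8939 in SI1, and fell by 2.22 (SE 0.14), with 11344 ± 1809.5 in SI3, and Papss2, which makes the sulfate donor PAPS, fell by 1.54 (SE 0.14), at 9337, 9000.4 and 7608 in SI2, against 21671, 26690.0 and 27192 in SI1. Oxct1, which starts the use of ketone bodies, fell by 1.50 (SE 0.09), and Ncoa4, the receptor that sends ferritin to the lysosome, by 1.30 (SE 0.12). The transcription regulators Prdm16, Foxq1 and Meis2 fell by 2.08, 1.83 and 1.64.

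The leucine aminopeptidase Lap3 rose by 1.39 (SE 0.10), at 15982, 16305 and 14453 in SI2, against 5497, 6584 and 5713 in SI1, glutamate dehydrogenase Glud1 by 1.01 (SE 0.08) and the aspartyl aminopeptidase Dnpep by 1.04 (SE 0.12). The carboxylate carriers Slc5a12, a relative of Slc5a8, and Slc13a2 rose by 1.73 (SE 0.12) and 1.12 (SE 0.12). Endothelin genes Edn1 and Edn2 rose by 1.40 (SE 0.27) and 1.09 (SE 0.12), with low Edn1 signals of 44.5, 29.1 and 93.0 in SI1. The tyrosine kinase Ptk6 rose by 1.88 (SE 0.13) and the potassium channel Kcnj13 by 2.15 (SE 0.23). Ddah1, which degrades an inhibitor of nitric oxide synthases, rose by 2.37 (SE 0.14).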
